A study of Mus musculus with 57 samples.

Results

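The genes described here are 8 members of the route by which nicotinamide is cleared and nicotinamide mononucleotide (NMN) is handled: *Nnmt*, *Aox1*, *Aox3*, *Nt5e*, *Enpp1*, *Pnp*, *Slc29a1* and *Slc12a8*. They were chosen by symbol, with earlier results of these data known. All 8 were found among the 25416 genes of the acute count table and the 54658 genes of the chronic one. All 8 also passed the filter on low counts in both studies, among 14240 and 14960 tested genes. RNA of hearts of male C57BL6/J mice was sequenced after poly(A) selection to ask how doxorubicin (Doxo), an anthracycline used against cancer that damages the heart, changes gene expression with and without NMN. In the acute study, mice obtained at 9 weeks of age received vehicle (Ctrl, 14 hearts), 1 i.p. injection of 20 mg/kg Doxo (Doxo, 13 hearts), or the same injection with 180 mg/kg/day NMN i.p. started 5 days before Doxo (Doxo-NMN, 13 hearts), and hearts were collected on day 5 after Doxo. In the chronic study, mice of 14 to 16 weeks received vehicle (Ctrl, 5 hearts), 5 injections of 4 mg/kg Doxo, 20 mg/kg in all (Doxo, 6 hearts), or the same injections with 500 mg/kg/day NMN in the drinking water (Doxo-NMN, 6 hearts), and hearts were collected on day 60 after the first injection. No sequenced group received NMN without Doxo, and the hearts are those of mice alive at collection.

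Nicotinamide is released whenever NAD+ is consumed and can be recycled to NMN and NAD+, or cleared. For clearance, nicotinamide N-methyltransferase (Nnmt) adds a methyl group taken from S-adenosylmethionine, and the aldehyde oxidases (Aox1 and Aox3 in mice), which carry a molybdenum cofactor, oxidise the product to pyridones that are excreted, chiefly in the liver. NMN given to an animal can meet the ectoenzyme CD73 (Nt5e), which removes its phosphate and yields nicotinamide riboside. Another ectoenzyme, Enpp1, cleaves NAD+ and ATP outside the cell. Purine nucleoside phosphorylase (Pnp), which is not an ectoenzyme, splits nicotinamide riboside into nicotinamide and ribose phosphate. The equilibrative transporter ENT1 (Slc29a1) carries adenosine and nicotinamide riboside through the membrane, and Slc12a8 has been described as an NMN transporter, a role that remains debated.

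Libraries of the acute study held 32409622 to 52102850 counts and those of the chronic study 17769886 to 23862287. Levels are given as normalized CPM, the count of a gene scaled to the library's total. The smallest detectable value was taken as 3 counts, which an acute library reached at 0.0550 to 0.105 CPM and a chronic one at 0.124 to 0.172 CPM, a limit that covers counting error only. Of acute counts from 1 to 20, a median of 73.6% per heart were even, against 40.3% in chronic hearts, so 1 count of the acute table may not stand for 1 read, and the acute limit may be too low. With all acute counts halved the numbers of members called in the 3 acute comparisons stayed at 2, 2 and 1. The 7 cardiomyocyte markers were above that limit in every heart. Acute Doxo replicate 6 resembled a control over the 4289 genes called in acute Doxo vs. Ctrl. Each heart was placed by these genes, weighted by their difference between the Doxo and Ctrl means of the same hearts. With the mean of Ctrl hearts set to 0 and that of Doxo hearts to 1, its position was 0.0368, inside the Ctrl range of −0.0376 to 0.0443, where the 12 remaining Doxo hearts took positions of 0.476 to 1.44. The heart was kept, and the main effects are repeated without it. A second division ran through all 3 groups: 17 acute hearts (8 Ctrl, 5 Doxo, 4 Doxo-NMN) held at least 100 CPM of *Myl4*, the atrial light chain gene, and 23 held less, from 1.31 to 93.1 CPM.

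The promoters of the 2 members that changed most in the acute hearts are shown because both are referred to below. They are RefSeq sequences of GRCm38.p6 upstream of the outermost RefSeq start, without the first exon of GENCODE M21, and capitals mark matches on either strand to TGANTCA, the motif of AP-1, or to TGACNNNGC, the core of the antioxidant response element bound by NRF2. These 2 motifs can overlap.
Aox1, chr1:58029719-58029930, plus strand: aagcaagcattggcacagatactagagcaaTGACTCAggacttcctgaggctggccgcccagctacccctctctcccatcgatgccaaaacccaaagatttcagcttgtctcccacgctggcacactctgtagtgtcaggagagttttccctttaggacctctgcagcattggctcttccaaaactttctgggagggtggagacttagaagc
Slc29a1, chr17:45599619-45599868, minus strand: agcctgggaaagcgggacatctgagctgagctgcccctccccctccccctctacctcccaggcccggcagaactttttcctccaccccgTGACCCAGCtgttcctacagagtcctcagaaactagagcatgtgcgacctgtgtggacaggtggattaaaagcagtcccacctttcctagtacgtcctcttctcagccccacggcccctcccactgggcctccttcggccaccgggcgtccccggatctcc
In the 250 bases before the RefSeq start, *Aox1* held 1 AP-1 motif, 220 bases upstream, and *Slc29a1* held 1 antioxidant response element core, 161 bases upstream. Distances are counted from the RefSeq start, which for *Aox1* lies beyond the end of the 212 bases shown. Of 32851 promoters of the same length, 6.75% held the first motif and 10.2% the second, and neither was found in the promoters of *Aox3*, *Nt5e*, *Enpp1*, *Pnp* or *Slc12a8*. The STAT motif TTCNNNGAA, present in 7.02% of promoters, was found once, before *Slc12a8*, and the E-box CACGTG, present in 6.02%, before none of the 7 members with an entry. Each member was searched before its outermost RefSeq start only, although 3 promoters are listed for *Slc12a8* and 8 for *Slc29a1*. A match describes the letters and was not tested as a binding site.

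Per kilobase of exon sequence, *Slc29a1* was the most abundant member in acute Ctrl hearts (10.5 ± 0.622 CPM per kb, SD, n = 14), followed by *Aox1* (4.19 ± 0.398), *Nt5e* (3.64 ± 0.568), *Nnmt* (1.19 ± 0.272), *Pnp* (1.08 ± 0.124), *Enpp1* (0.691 ± 0.128), *Slc12a8* (0.185 ± 0.101) and *Aox3* (0.176 ± 0.149). Exon lengths were those of GENCODE M21, whereas the annotation behind the counts is not given, so the order may depend on it. *Aox1* and *Nt5e*, *Nnmt* and *Pnp*, and *Slc12a8* and *Aox3* were neighbours whose SDs overlapped. In acute Doxo hearts *Aox1* stood first (18.3 ± 10.5 CPM per kb, n = 13) and *Slc29a1* second (5.46 ± 2.13), and in Doxo-NMN hearts *Slc29a1* was again first (8.97 ± 0.909) before *Aox1* (6.98 ± 3.46). The other 6 kept their places in all 3 acute groups. In chronic Ctrl hearts *Slc29a1* led as well (15.5 ± 1.56 CPM per kb, n = 5), and *Nt5e* stood at 1.12 ± 0.0749, below *Nnmt* (1.54 ± 0.448).

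*Aox1* was the member that moved most with Doxo. This gene of 31 exon blocks lies on chromosome 1 (GRCm38, 58029931 to 58106413, plus strand) and encodes the aldehyde oxidase found in most mouse tissues. In acute Ctrl hearts its lowest, median and highest levels were 30.1, 35.6 and 43.1 CPM. In Doxo hearts they were 40.5, 121 and 385 CPM, and in Doxo-NMN hearts 42, 50.5 and 154 CPM. All Doxo hearts but replicate 6 lay above every Ctrl heart. The Doxo-NMN hearts lay between 42 and 81.0 CPM, mostly above the Ctrl range and within the lower part of the Doxo range, with the exception of replicate 10 at 154 CPM. That heart also had the highest position of its group between Ctrl and Doxo, 0.911, before replicate 8 at 0.557. *Aox1* is among the genes that set this position. In Doxo vs. Ctrl, *Aox1* rose 4.37-fold (log2 fold change 2.13, SE 0.221, adjusted p = 3.88e-10). In Doxo-NMN vs. Doxo it was 2.62-fold lower (log2 fold change −1.39, SE 0.222, adjusted p = 5.69e-06). These comparisons share the Doxo hearts. It remained higher in Doxo-NMN vs. Ctrl (log2 fold change 0.74, SE 0.215, adjusted p = 0.00980), with 12 of 13 hearts above the highest Ctrl heart. Without Doxo-NMN replicate 10 this last difference was 0.54 (adjusted p = 0.0400) and no longer reached 1.5-fold, and in limma voom, with 0.52, it did not either. Without Doxo replicate 6 the Doxo effect was 2.21.

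The spread of *Aox1* grew with its level. The coefficient of variation was 9.51% among Ctrl, 57.4% among Doxo and 49.5% among Doxo-NMN hearts, and the highest Doxo heart held 9.52 times the level of the lowest. Replicate 5, at 385 CPM, stood above the next Doxo heart at 230 CPM. Without it the Doxo mean was 140 ± 63.7 CPM (n = 12) and the fold change 1.93 on the log2 scale. The 4 hepatocyte markers, which include *Alb*, summed to 0.486 to 1.13 CPM in Ctrl, 0.523 to 4.27 CPM in Doxo and 0.704 to 2.37 CPM in Doxo-NMN hearts, far below *Aox1*, with 1 of 2 tested called higher in Doxo vs. Ctrl. Of the 4 neutrophil markers tested, all 4 were called higher in Doxo vs. Ctrl, and their list summed to 0.658 to 4.04, 1.84 to 260 and 3.0 to 28.3 CPM in Ctrl, Doxo and Doxo-NMN hearts, with *Ly6g* at 0 in all Ctrl hearts. Their part in the result was not tested. In RNA of whole tissue, fewer cells of a type and less RNA per cell cannot be told apart.

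**Figure D1:**
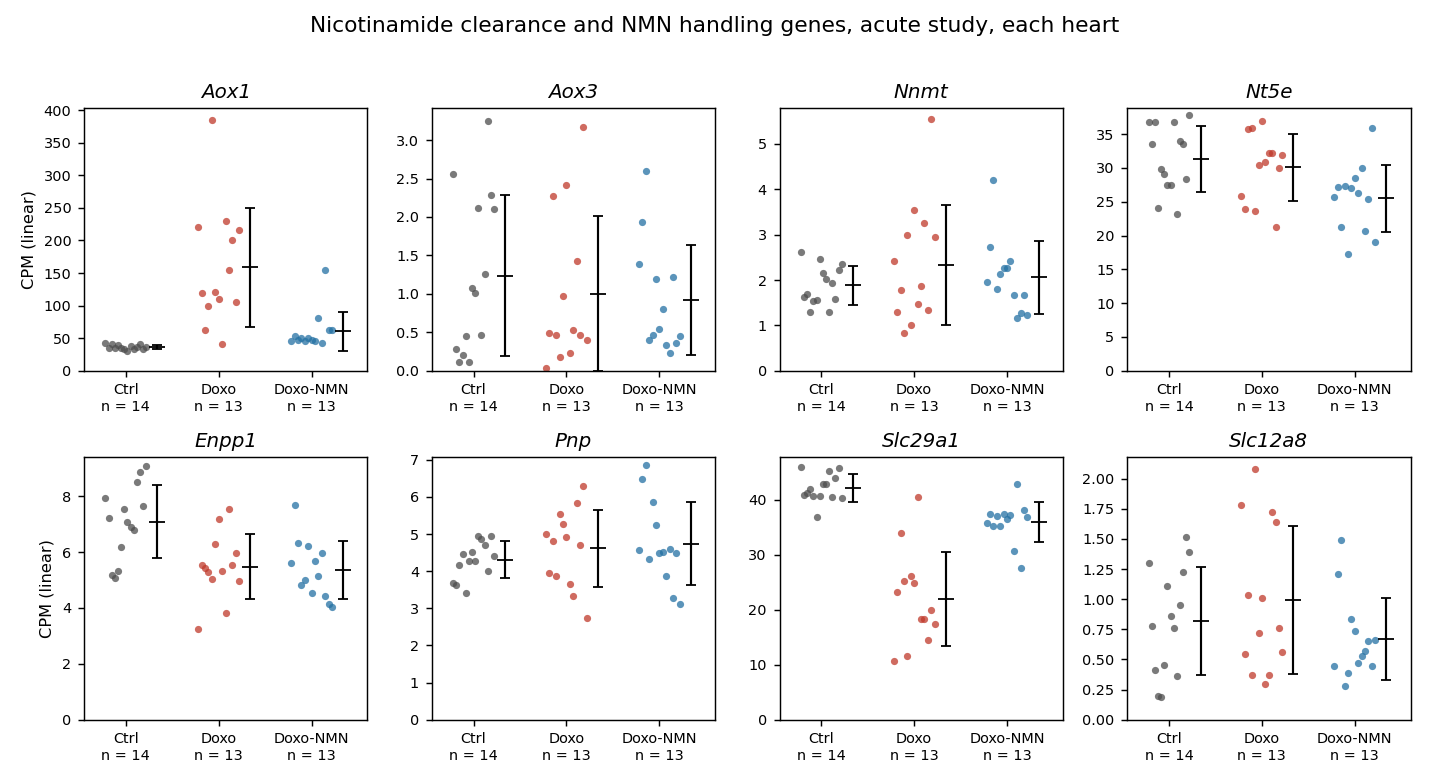
Level of each of the 8 genes in every acute heart, in CPM on linear axes that start at 0, for Ctrl (n = 14), Doxo (n = 13) and Doxo-NMN (n = 13), with points for hearts and black bars for the mean and SD. *Aox1* ranges from 40.5 to 385 CPM in Doxo hearts and from 30.1 to 43.1 CPM in Ctrl hearts, and *Slc29a1* from 10.6 to 40.5 CPM against 36.9 to 45.9 CPM.

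*Aox3*, the neighbour of *Aox1* and known mainly from liver, starts 6716 bases beyond its end (chromosome 1, 58113130 to 58200698, plus strand). It was called in no comparison. The coding sequences of both genes were 66.3% identical over 3980 aligned bases, with no identical run longer than 20 bases, and they shared no window of 150 bases. *Aox3* ranged from 0.117 to 3.25 CPM in Ctrl (median 1.05), from 0.0350 to 3.17 CPM in Doxo (median 0.496) and from 0.228 to 2.6 CPM in Doxo-NMN hearts (median 0.540), a range in which the lowest heart had 1 count. The 3 groups overlapped almost fully. Doxo vs. Ctrl gave a log2 fold change of −0.29 (SE 0.492, adjusted p = 0.610), with a 95% interval of −1.25 to 0.68, which holds changes of either direction. Doxo-NMN vs. Doxo gave −0.14 (adjusted p = 0.834) and Doxo-NMN vs. Ctrl −0.43 (adjusted p = 0.549). The groups held unequal shares of hearts with high *Myl4*: 8 of 14 Ctrl, 5 of 13 Doxo and 4 of 13 Doxo-NMN. Among these, *Aox3* means were 1.96, 2.05 and 1.78 CPM, and among hearts with low *Myl4* 0.271, 0.349 and 0.535 CPM. The part of this division in the values over all hearts was not tested.

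*Nnmt*, the enzyme that commits nicotinamide to clearance (chromosome 9, 48591877 to 48605153, minus strand), was low in all hearts. Its lowest, median and highest levels were 1.29, 1.82 and 2.61 CPM in Ctrl, 0.838, 1.86 and 5.55 CPM in Doxo, and 1.16, 1.96 and 4.19 CPM in Doxo-NMN hearts. Medians were alike, while 5 Doxo hearts lay above and 3 below the whole Ctrl range. Doxo vs. Ctrl gave a log2 fold change of 0.31 (SE 0.217, adjusted p = 0.205, 95% interval −0.12 to 0.73) and Doxo-NMN vs. Doxo one of −0.18 (SE 0.22, adjusted p = 0.511, 95% interval −0.61 to 0.25), and Doxo-NMN vs. Ctrl gave 0.13 (adjusted p = 0.694).

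Of the enzymes that act on NMN and NAD+ outside the cell, *Enpp1* (chromosome 10, 24637914 to 24712159, minus strand) was lower after Doxo. It measured 5.08, 7.15 and 9.10 CPM (lowest, median, highest) in Ctrl, 3.25, 5.43 and 7.55 CPM in Doxo, and 4.04, 5.14 and 7.68 CPM in Doxo-NMN hearts. The groups overlapped, with 4 Doxo and 6 Doxo-NMN hearts below the lowest Ctrl heart. *Enpp1* fell by 0.37 on the log2 scale in Doxo vs. Ctrl (SE 0.111, adjusted p = 0.00324) and by 0.41 in Doxo-NMN vs. Ctrl (SE 0.111, adjusted p = 0.00626), less than 1.5-fold in both. The second difference did not pass when hearts with low or high *Myl4* were fitted alone (−0.30 in each, adjusted p = 0.135 and 0.102). Doxo-NMN vs. Doxo gave −0.03 (95% interval −0.25 to 0.19, adjusted p = 0.831).

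*Nt5e*, the gene of CD73 (chromosome 9, 88327197 to 88372092, plus strand), did not differ detectably between Doxo and Ctrl but was lower with NMN. Ctrl hearts held 23.3 to 37.8 CPM (median 31.7), Doxo hearts 21.2 to 36.9 CPM (median 30.9) and Doxo-NMN hearts 17.2 to 35.9 CPM (median 26.2). Only 4 Doxo-NMN hearts lay below the lowest Doxo heart. *Nt5e* had log2 fold changes of −0.06 in Doxo vs. Ctrl (95% interval −0.25 to 0.13, adjusted p = 0.593), −0.24 in Doxo-NMN vs. Doxo (SE 0.0976, adjusted p = 0.0377) and, against Ctrl, −0.30 in Doxo-NMN hearts (SE 0.0959, adjusted p = 0.0195). The adjusted p of Doxo-NMN vs. Doxo exceeded 0.05 (0.0517 to 0.0751) when any 1 of 10 hearts was left out, namely Doxo replicates 1, 7, 8, 9, 12 and 13 and Doxo-NMN replicates 5, 7, 12 and 13. It was 0.0697 without the low-count filter and 0.0599 in a fit of only both groups. Among hearts with low *Myl4* neither difference had an adjusted p under 0.05 (−0.13, adjusted p = 0.444, and −0.21 against Ctrl, adjusted p = 0.381), and among hearts with high *Myl4* both did (−0.40, adjusted p = 0.00879, and −0.37 against Ctrl, adjusted p = 0.0262). Whether the classes differ was not tested.

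*Pnp*, the nucleoside phosphorylase gene (chromosome 14, 50931082 to 50965237, plus strand), cannot be fully separated from *Pnp2*, a nearly identical copy that lies within its annotated span. Their coding sequences were 98.2% identical, with 16 of 867 aligned bases different and an identical run of 292 bases, and the stretch of 90 coding bases with most differences is shown, differing bases in capitals.
Pnp, coding bases 777 to 866: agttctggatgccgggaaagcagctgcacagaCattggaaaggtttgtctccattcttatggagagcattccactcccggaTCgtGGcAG
Pnp2, coding bases 822 to 911: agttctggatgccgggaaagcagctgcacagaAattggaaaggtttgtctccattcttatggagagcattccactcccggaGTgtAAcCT
Of all 150-base windows of *Pnp* transcripts, 3.65% were also in *Pnp2* and 14.5% in the overlapping gene model *Gm49342*, while the other 7 members shared no such window with another gene. *Pnp* ranged from 3.41 to 4.96 CPM in Ctrl, 2.73 to 6.31 CPM in Doxo and 3.13 to 6.86 CPM in Doxo-NMN hearts, so treated hearts reached both below and above the controls. For *Pnp*, Doxo vs. Ctrl gave a log2 fold change of 0.10 (95% interval −0.12 to 0.32, adjusted p = 0.445) and Doxo-NMN vs. Doxo 0.04 (95% interval −0.18 to 0.26, adjusted p = 0.784), while Doxo-NMN vs. Ctrl gave 0.14 (adjusted p = 0.376).

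*Slc29a1* was the member that fell most. The gene of the nucleoside transporter ENT1 lies on chromosome 17 (45585200 to 45599606, minus strand) and shares 6.86% of its exon bases with the antisense gene model *Gm17080*, whose reads cannot be told apart without strand. Its lowest, median and highest levels were 36.9, 41.5 and 45.9 CPM in Ctrl, 10.6, 19.9 and 40.5 CPM in Doxo, and 27.6, 36.8 and 42.8 CPM in Doxo-NMN hearts. All Doxo hearts but replicate 6 lay below every Ctrl heart, and the Doxo-NMN hearts reached into the Ctrl range, with 7 of 13 below it. *Slc29a1* was 1.92-fold lower in Doxo vs. Ctrl (log2 fold change −0.94, SE 0.124, adjusted p = 3.49e-08) and 1.64-fold higher in Doxo-NMN vs. Doxo (log2 fold change 0.72, SE 0.126, adjusted p = 1.98e-05). Doxo-NMN vs. Ctrl gave −0.23 (95% interval −0.47 to 0.01, adjusted p = 0.170). This value had adjusted p = 0.000347 in a fit of only these 2 groups and 0.00367 in limma voom. Without Doxo replicate 6 the Doxo effect was −1.05. The 7 endothelial markers summed to 799 to 1058 CPM in Ctrl, 674 to 1178 CPM in Doxo and 681 to 968 CPM in Doxo-NMN hearts, with 1 called higher and 1 lower in Doxo vs. Ctrl. Other lists moved with Doxo as well. All 4 red cell markers were called lower, and their sum was 229 to 2259 CPM in Ctrl, 0.901 to 179 CPM in Doxo and 0.209 to 1.74 CPM in Doxo-NMN hearts. Of fibroblast markers 3 of 6 were called lower (sums of 581 to 1127, 503 to 1351 and 465 to 1139 CPM), of macrophage markers 2 of 6 (130 to 203, 84.6 to 232 and 121 to 215 CPM) and of lymphocyte markers 2 of 2 tested (0.614 to 1.84, 0.173 to 2.27 and 0.258 to 1.22 CPM). Of the 7 cardiomyocyte markers 2 were called higher and 1 lower (50678 to 62401, 29482 to 69887 and 36671 to 76171 CPM). Of smooth muscle and pericyte markers 1 of 5 was called lower (979 to 1337, 474 to 1206 and 835 to 1220 CPM). Of adipocyte markers 1 of 5 tested was called lower (294 to 441, 164 to 446 and 295 to 409 CPM). Their part in the results was not tested.

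*Slc12a8* (chromosome 16, 33517328 to 33664135, plus strand) was the other transporter and was among the 2 lowest members. It ranged from 0.188 to 1.51 CPM in Ctrl (8 to 69 counts), from 0.299 to 2.08 CPM in Doxo and from 0.279 to 1.49 CPM in Doxo-NMN hearts, and the groups overlapped. Doxo vs. Ctrl gave a log2 fold change of 0.26 (SE 0.313, adjusted p = 0.470, 95% interval −0.36 to 0.87) and Doxo-NMN vs. Doxo one of −0.55 (SE 0.321, adjusted p = 0.143, 95% interval −1.18 to 0.07), and Doxo-NMN vs. Ctrl gave −0.30 (adjusted p = 0.514).

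Counted together, 2 of the 8 members were called in acute Doxo vs. Ctrl at an adjusted p under 0.05 and a change of at least 1.5-fold, *Aox1* higher and *Slc29a1* lower. Of all tested genes 30.1% were called, so 2 of 8 is near the background and is no result about the members as a group. On adjusted p alone 3 members passed, against 68.1% of all genes. In Doxo-NMN vs. Doxo the same 2 genes were called in the opposite directions, against a background of 17.1%, and 3 passed on adjusted p alone, against 53%. In Doxo-NMN vs. Ctrl, 1 member was called, *Aox1*, against 7.11%, and 3 passed on adjusted p alone, against 26%. The median of the 8 log2 fold changes was 0.02 in Doxo vs. Ctrl and −0.16 in Doxo-NMN vs. Doxo, beside medians of −0.0016 and −0.00083 over all genes. No member separated Doxo from Ctrl hearts without overlap, which 0.906% of all genes did.

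**Figure D2:**
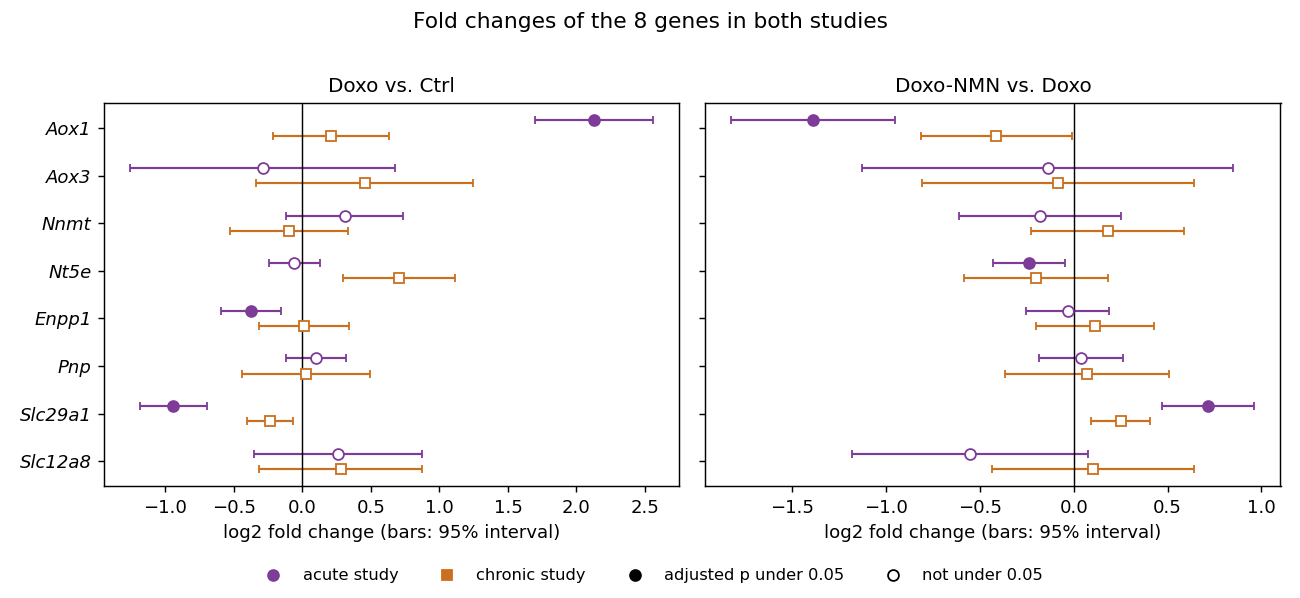
Log2 fold changes of the 8 genes (horizontal axis) in Doxo vs. Ctrl and Doxo-NMN vs. Doxo, with circles for the acute and squares for the chronic study, bars for the 95% interval and filled symbols for an adjusted p under 0.05. *Aox1* lies at 2.13 and −1.39 and *Slc29a1* at −0.94 and 0.72 in the acute study, and no chronic symbol is filled.

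Doxo hearts with more *Aox1* held less *Slc29a1*. Over the 13 acute Doxo hearts, log2 levels of both genes gave Pearson's r of −0.92 and Spearman's rho of −0.86. The pair was chosen after the values were seen, as the members with the strongest inverse relation, so the coefficients are a description with no test. Leaving out replicates 5 and 6, the hearts farthest from the median of *Aox1*, left r at −0.86, and the 8 hearts with low *Myl4* gave −0.92. The hearts also ordered by their position over the genes called in acute Doxo vs. Ctrl. Both members are among those genes, so this order is not independent of them. Replicates 4, 5 and 10, at positions of 1.35 to 1.44, held the lowest *Slc29a1*, 10.6 to 14.5 CPM, with *Aox1* at 201 to 385 CPM, while replicates 6 and 7, at 0.0368 and 0.476, held the highest *Slc29a1* and the lowest *Aox1*. Whether the pair is related beyond this shared order was not tested. Among the 13 Doxo-NMN hearts r was −0.84 but rho was −0.24, and without replicates 8 and 10 r was −0.12, so the relation rested on those hearts. The 9 of them with low *Myl4*, which include replicate 10, gave r of −0.88, whereas the sign was positive in the 4 with high *Myl4*, too few for a coefficient. Among the 14 Ctrl hearts r was 0.13 and rho 0.06, and r was −0.04 without replicates 4 and 9. The ratio of *Aox1* to *Slc29a1* CPM ran from 0.702 to 0.979 in Ctrl, from 0.999 to 33.5 in Doxo and from 0.981 to 5.60 in Doxo-NMN hearts.

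**Figure D3:**
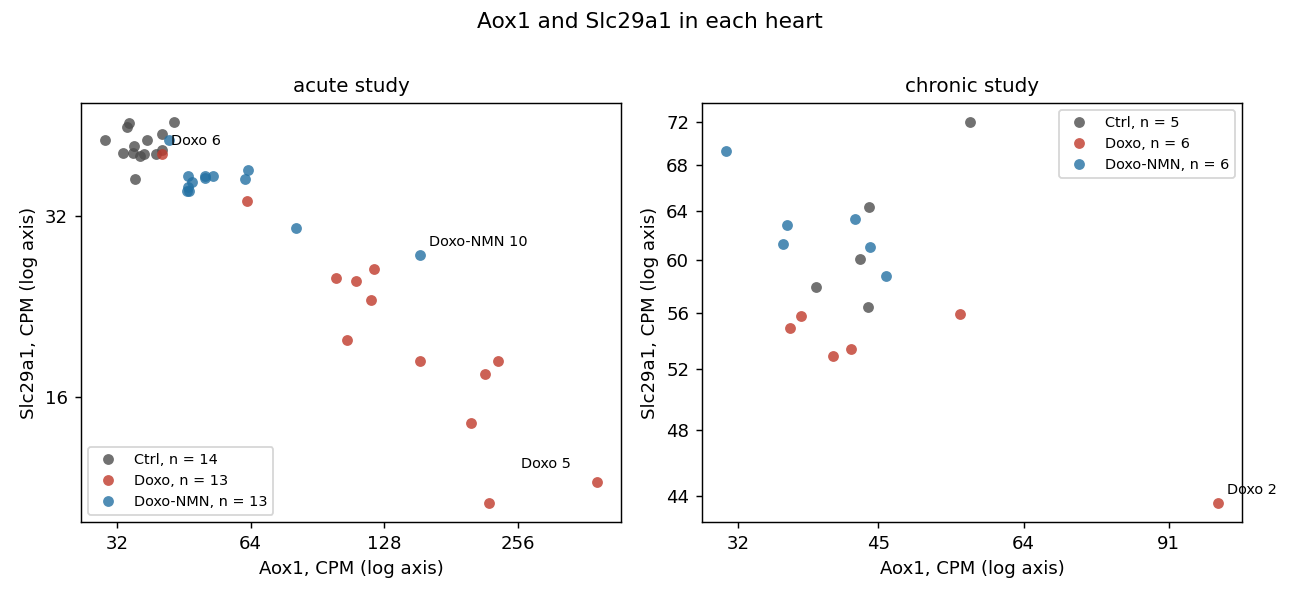
*Aox1* (horizontal) against *Slc29a1* (vertical) in CPM on log axes, 1 point per heart, for the 40 acute hearts on the left and the 17 chronic hearts on the right. In the acute study Doxo 5 holds 385 CPM of *Aox1* and Doxo 6 lies among the Ctrl hearts, and in the chronic study Doxo 2 stands apart at 102 CPM of *Aox1* and 43.6 CPM of *Slc29a1*.

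*Aox3* differed more between hearts with high and low *Myl4* than between treatments. It measured 1.01 to 3.25 CPM in the 8 Ctrl hearts with high *Myl4* and 0.117 to 0.466 CPM in the 6 with low *Myl4*, a ratio of means of 7.21. In Doxo hearts the values were 0.972 to 3.17 CPM (5 hearts) and 0.0350 to 0.534 CPM (8 hearts), a ratio of 5.87. The classes did not overlap in these groups. In Doxo-NMN hearts the ratio was 3.33 and the ranges, 1.2 to 2.6 CPM (4 hearts) and 0.228 to 1.23 CPM (9 hearts), met at 1.2 CPM. This division comes from the data and not from the design, so no test between the classes is given. Adjusted p values of fits within a class are exploratory.

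*Slc12a8* showed the division in Ctrl hearts (1.14 ± 0.266 against 0.398 ± 0.215 CPM, n = 8 and 6) but not in Doxo hearts (1.05 ± 0.402 against 0.956 ± 0.742 CPM, n = 5 and 8), where hearts with low *Myl4* ranged from 0.299 to 2.08 CPM. Fitted among hearts with low *Myl4* alone, *Slc12a8* rose in Doxo vs. Ctrl (log2 fold change 1.23, SE 0.440, adjusted p = 0.0217), and among hearts with high *Myl4* the value was −0.11 (SE 0.274, adjusted p = 0.748). Whether these differ was not tested, and over all acute hearts the value was 0.26 (adjusted p = 0.470). In the low class the highest Doxo levels of *Slc12a8* were those of replicates 4, 5 and 10 (1.78, 2.08 and 1.64 CPM). These replicates also held the highest positions of the Doxo hearts, 1.35 to 1.44. The part of position in this rise was not tested. *Enpp1* was higher with high *Myl4* by ratios of 1.33 to 1.34 and *Nnmt* by 1.44 to 1.60 in the 3 groups. *Aox1* was at the same mean level in both classes of Ctrl hearts (36.4 ± 4.11 and 36.3 ± 2.73 CPM), and its rise in Doxo vs. Ctrl was called in both classes, at 2.36 among low (adjusted p = 0.000106) and 1.62 among high hearts (adjusted p = 1.07e-07). Its difference in Doxo-NMN vs. Ctrl passed in neither, with 0.85 (adjusted p = 0.112) and 0.43 (adjusted p = 0.0830). *Slc29a1* was called in Doxo vs. Ctrl in both as well, at −1.04 (adjusted p = 0.000404) and −0.79 (adjusted p = 6.31e-06). *Pnp* passed only among high hearts (log2 fold change 0.30, adjusted p = 0.0286). The epicardial markers, 4 in number, summed to 5.57 to 74.0 CPM in Ctrl, 3.90 to 46.5 CPM in Doxo and 5.15 to 64.6 CPM in Doxo-NMN hearts, and their part in these differences was not tested.

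**Figure D4:**
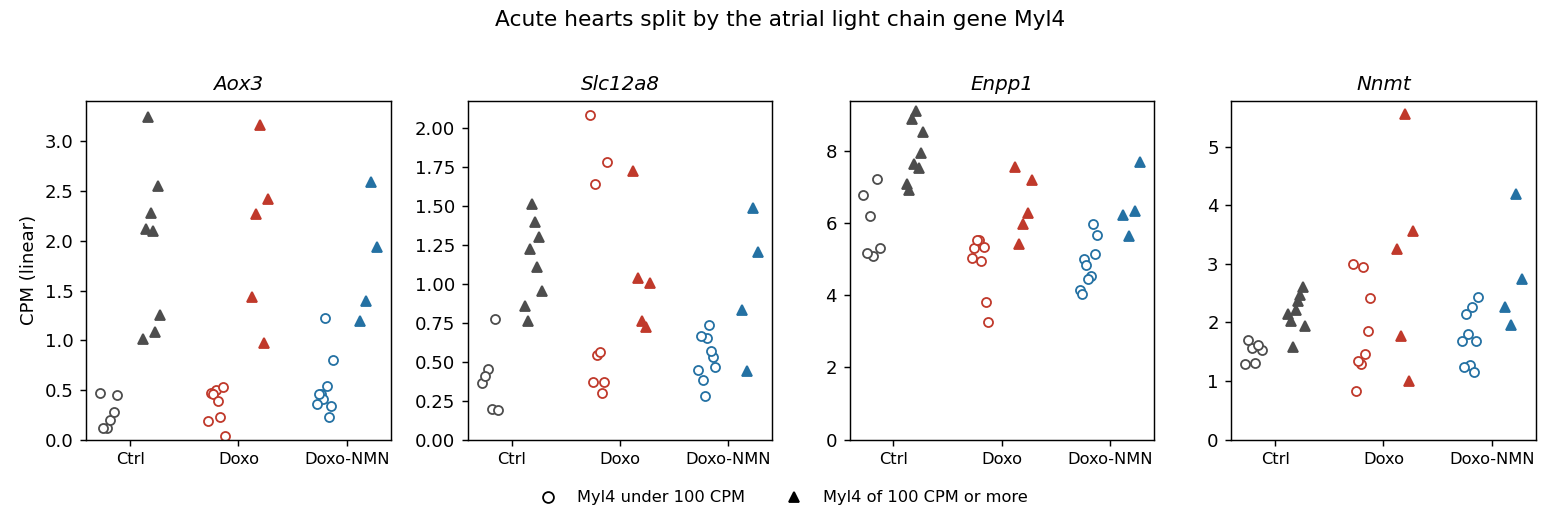
CPM (linear axes) of 4 members in the acute hearts by treatment, with open circles for hearts under 100 CPM of *Myl4* and filled triangles for hearts with 100 CPM or more. For *Aox3* the triangles lie at 1.01 to 3.25 CPM and the circles at 0.117 to 0.466 CPM in Ctrl, while *Slc12a8* circles reach 2.08 CPM in Doxo hearts.

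In the chronic hearts, 60 days after the first Doxo injection, none of the 8 members was called in any comparison by edgeR, by DESeq2 or by limma voom. Few genes were: 0.0602% in Doxo vs. Ctrl, 0.00% in Doxo-NMN vs. Doxo and 0.0401% in Doxo-NMN vs. Ctrl. At an unadjusted p under 0.05, 2 members passed in Doxo vs. Ctrl, 1 in Doxo-NMN vs. Doxo and 1 in Doxo-NMN vs. Ctrl, against 7.85%, 2.95% and 4.73% of all genes.

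*Nt5e* and *Slc29a1* were the 2 members whose chronic Doxo and Ctrl hearts did not overlap, as held for 0.922% of all genes. *Nt5e* was at 8.82, 10.1, 10.3, 9.62 and 9.11 CPM in Ctrl replicates 1 to 5. In Doxo replicates 1 to 6 it was at 12.4, 23.4, 12.2, 16.2, 12.4 and 17.4 CPM, and in Doxo-NMN replicates 1 to 6 at 18.4, 15.5, 14.5, 7.39, 9.23 and 16.7 CPM. Doxo hearts thus lay above all Ctrl hearts, and Doxo-NMN hearts reached from below the lowest Ctrl to within the Doxo range. The lowest of them, Doxo-NMN replicates 4 and 5, also held the most *Myl4* of the chronic hearts, 83.8 and 14.3 CPM. The other Doxo-NMN hearts held 1.73 to 2.02 CPM of *Myl4*. The part of this difference in their *Nt5e* levels was not tested. The log2 fold change in Doxo vs. Ctrl was 0.70 (SE 0.210, adjusted p = 0.453), and without Doxo replicate 2, the heart at 23.4 CPM, it was 0.56 (adjusted p = 0.807).

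*Slc29a1* was at 72, 58.0, 56.4, 64.4 and 60.2 CPM in chronic Ctrl replicates 1 to 5. In Doxo replicates 1 to 6 it was at 54.9, 43.6, 55.8, 56, 52.9 and 53.4 CPM, and in Doxo-NMN replicates 1 to 6 at 58.8, 61.3, 62.8, 61.1, 69.3 and 63.4 CPM. Every Doxo heart lay below every Ctrl and every Doxo-NMN heart, a separation from Doxo-NMN that 0.160% of all genes showed. Doxo vs. Ctrl gave a log2 fold change of −0.24 (SE 0.0845, adjusted p = 0.562) and Doxo-NMN vs. Doxo one of 0.25 (SE 0.0807, adjusted p = 0.999). Neither passed the test over all genes.

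*Aox1* was at 56.2, 38.7, 43.8, 43.9 and 43 CPM in chronic Ctrl replicates 1 to 5. In Doxo replicates 1 to 6 it was at 36.3, 102, 37.3, 54.8, 40.3 and 42.1 CPM, and in Doxo-NMN replicates 1 to 6 at 45.9, 35.7, 36.0, 44, 31.1 and 42.5 CPM. Apart from Doxo replicate 2 all hearts lay between 31.1 and 56.2 CPM. The log2 fold change in Doxo vs. Ctrl was 0.21 (95% interval −0.21 to 0.63, adjusted p = 0.821) and turned to −0.09 without that heart. Doxo replicate 2 also held the highest *Nt5e* and *Aox3* and the lowest *Slc29a1*, *Nnmt* and *Slc12a8* of its group. The chronic hearts of the other 5 members overlapped between all groups. *Aox3* ranged from 0.509 to 1.40 CPM in Ctrl, 0.786 to 2.24 CPM in Doxo and 0.556 to 2.45 CPM in Doxo-NMN hearts, and *Slc12a8*, with 6 to 20 counts a heart in Doxo, from 0.372 to 0.622, 0.345 to 0.984 and 0.375 to 0.832 CPM. *Nnmt* ranged from 1.64 to 3.43, 1.61 to 2.84 and 1.97 to 3.88 CPM, *Enpp1* from 3.79 to 5.81, 3.84 to 5.45 and 3.75 to 6.70 CPM, and *Pnp* from 2.14 to 3.99, 1.54 to 4.51 and 2.35 to 3.68 CPM. Doxo effects in these 5 lay between −0.10 for *Nnmt* (adjusted p = 0.933) and 0.45 for *Aox3* (adjusted p = 0.791), with 0.28 for *Slc12a8*, 0.03 for *Pnp* and 0.01 for *Enpp1*. In Doxo-NMN vs. Doxo the values of the 8 members lay between −0.41 for *Aox1* and 0.25 for *Slc29a1*, and in Doxo-NMN vs. Ctrl between −0.20 for *Aox1* and 0.50 for *Nt5e*, with an adjusted p of 0.999 for every member in both. In this study *Pnp2* had few counts and did not pass the low-count filter. It ranged from 0 to 0.194 CPM in Ctrl (0 to 4 counts) and from 0.124 to 0.517 CPM in Doxo hearts (3 to 9 counts). Doxo-NMN hearts held 0.0427 to 0.383 CPM (1 to 8 counts), and the groups overlapped. *Gm49342* is listed in the chronic table but not in the acute one, so levels of *Pnp* and *Pnp2* were not compared between the studies.

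**Figure D5:**
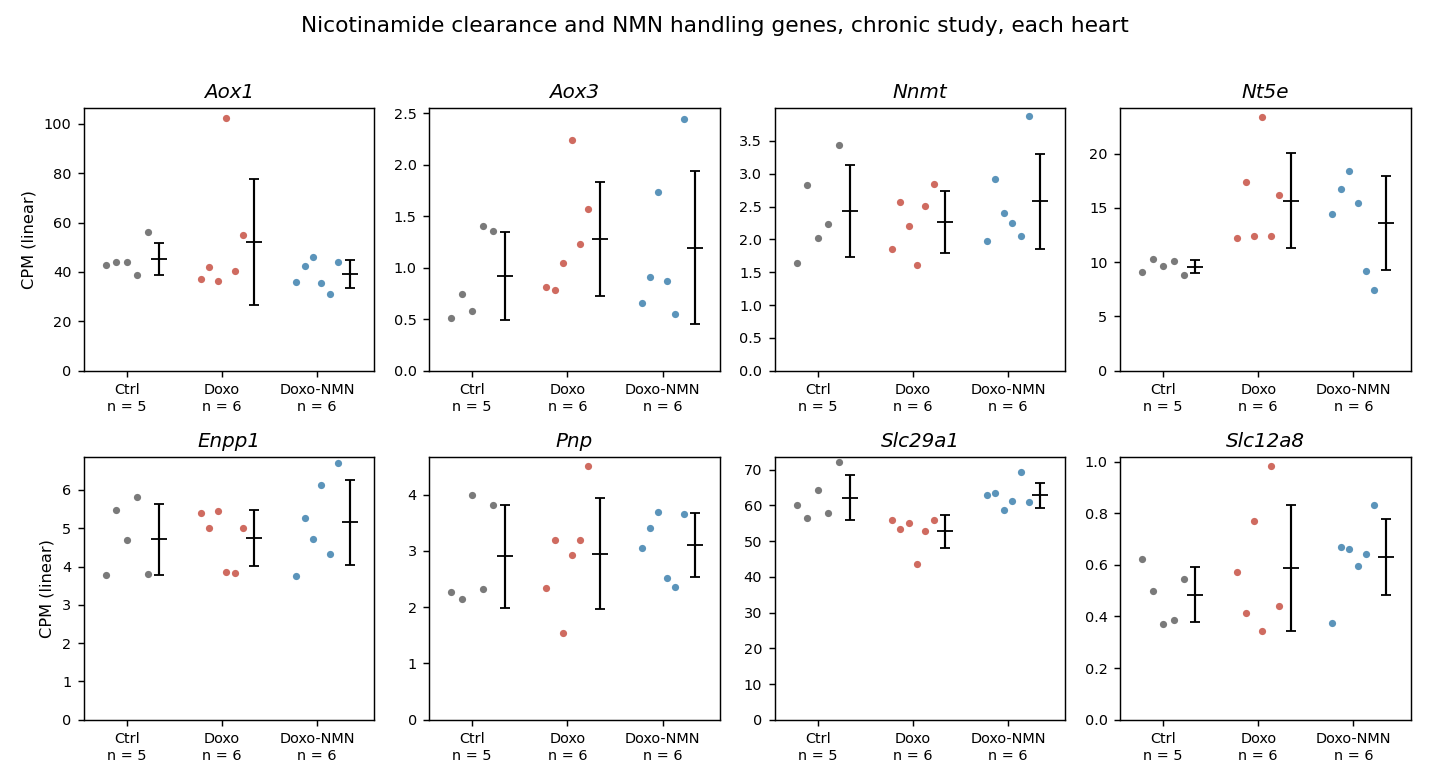
Level of each of the 8 genes in every chronic heart, in CPM on linear axes that start at 0, for Ctrl (n = 5), Doxo (n = 6) and Doxo-NMN (n = 6), with points for hearts and black bars for the mean and SD. The Doxo points of *Nt5e* (12.2 to 23.4 CPM) lie above and those of *Slc29a1* (43.6 to 56 CPM) below the Ctrl points, and 1 Doxo heart stands at 102 CPM of *Aox1*.

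Whether the Doxo effect itself differed between the studies was tested with an interaction term. In it regimen, time, age, supplier of the mice, animal site, sequencing site and annotation cannot be told apart. The test called 3 of the 8 members, against 19.3% of 14965 genes. For *Aox1* the Doxo log2 fold change was 2.12 in the acute and 0.21 in the chronic hearts (difference 1.91, SE 0.385, adjusted p = 0.00298). For *Nt5e* it was −0.06 and 0.71 (difference −0.77, SE 0.184, adjusted p = 0.00660). For *Slc29a1* it was −0.95 and −0.24 (difference −0.71, SE 0.237, adjusted p = 0.0332), a call that depended on single hearts, since without any 1 of chronic Ctrl replicates 2, 3, 4 and 5 and chronic Doxo replicates 1, 3 and 4 the adjusted p was 0.0502 to 0.0616. *Enpp1* gave −0.39 (SE 0.209, adjusted p = 0.176), and the other 4 had adjusted p of 0.466 to 0.985.

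Around the members, 4 lists of related genes were examined. Among genes of NAD+ salvage and NAD+ use outside the nucleus, 4 of 15 tested were called higher and 1 lower in acute Doxo vs. Ctrl (median log2 fold change 0.05). *Nampt*, which turns nicotinamide back into NMN, rose by a log2 fold change of 0.94 (adjusted p = 1.59e-09), *Nmrk2*, a nicotinamide riboside kinase of muscle, by 1.94 (adjusted p = 3.0e-08), *Art1*, a cell-surface ADP-ribosyltransferase, by 0.67 and *Cd38*, a consumer of NAD+, by 0.62, while *Nmnat1*, the nuclear NAD+ synthase, fell by 0.65. In Doxo-NMN vs. Doxo, 1 was called higher and 2 lower, among them *Nadsyn1*, the NAD+ synthetase of the deamidated route, higher by 0.67, *Nmrk2* at −0.88 and *Cd38* at −0.80.

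Of the methyl donor cycle and the enzymes that share the cofactor or substrates of the aldehyde oxidases, 5 of 17 were called higher and 1 lower in acute Doxo vs. Ctrl (median 0.32). *Gnmt*, which consumes S-adenosylmethionine as Nnmt does, rose by a log2 fold change of 2.21 (adjusted p = 6.73e-10), and *Ahcy*, which removes the S-adenosylhomocysteine left by methylation, by 1.47 (adjusted p = 5.91e-10). *Mtr*, the methionine synthase gene, fell by 1.23 (adjusted p = 1.75e-08). The other 3 that rose belong to the molybdenum enzymes and their cofactor. *Xdh*, xanthine dehydrogenase, rose by 0.98, *Mocos*, the sulfurase that activates both xanthine dehydrogenase and aldehyde oxidase, by 1.03, and *Mocs1*, of cofactor synthesis, by 1.07. In chronic Doxo replicate 2, the heart with 102 CPM of *Aox1*, *Xdh* stood at 428 CPM and *Mocos* at 12.3 CPM, against 114 to 177 and 6.96 to 10.7 CPM in the other Doxo hearts.

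Of the nucleotidases, nucleosidases and genes of adenosine handling, 3 of 22 were called higher and 2 lower (median −0.01). *Ada*, adenosine deaminase, rose by a log2 fold change of 2.86 (adjusted p = 6.18e-09) and was lower in Doxo-NMN vs. Doxo (−2.40, adjusted p = 1.58e-06). *Entpd1*, the CD39 gene whose enzyme supplies AMP to CD73, rose by 0.89 and *Ampd3*, an AMP deaminase, by 0.64, while *Nt5c1a*, a cytosolic AMP nucleotidase of muscle, fell by 1.15 and *Adora2a*, an adenosine receptor, by 1.09. Of the nucleoside, phosphate and cation-chloride transporters, 3 of 15 were called higher and 3 lower (median −0.24). Of the nucleoside transporters named by the rule, *Slc29a2* fell by 0.79 and *Slc29a3* by 0.80. Of the concentrative ones, which are of another family, *Slc28a2* fell by 1.06 and *Slc28a1* rose by 2.96. *Slc12a3* rose by 2.74 and the phosphate transporter *Slc20a1* by 0.66. In Doxo-NMN vs. Doxo the counts higher and lower were 1 and 3, 1 and 2, and 2 and 2 in the last 3 lists. Read against the 30.1% and 17.1% of all genes called in these comparisons, the shares are not a result about the lists. No gene of the 4 lists was called in a chronic comparison.

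The genes most like each member were taken from correlations of log2 CPM over the 40 acute hearts after each group's mean was subtracted, given as a description. *Aox1* ran closest to *Sqstm1*, *Mvp* and *Btf3* (r = 0.93 for each), and over the 17 chronic hearts the same pairs had r of 0.74, 0.63 and 0.82. *Slc29a1* ran closest to *Fam78a*, *Rfng* and *Slc26a6* (0.94, 0.94 and 0.92, and 0.23, 0.67 and 0.61 in chronic hearts). *Aox3* ran with *Vit*, *Camk1g* and *Vsig4* (0.91 to 0.92), *Enpp1* with *Zfp9*, *Psd3* and *Slc2a13* (0.81 to 0.82), *Nnmt* with *Aldh1a2*, *Adgrd1* and *Ccl6* (0.82 to 0.83) and *Slc12a8* with *Cpe*, *Erbb4* and *Sptbn5* (0.80 to 0.82). In every group these 4 members, and also *Pnp* and *Slc29a1*, had higher means with high *Myl4*, by ratios from 1.02 for *Slc29a1* in Doxo-NMN hearts to 7.21 for *Aox3* in Ctrl hearts. *Pnp* ran with the interferon-induced genes *Ifit3* and *Ifit1* and with *Apol9a* (0.71 to 0.73). *Nt5e* had the weakest likeness, to *Wdr47*, *Garem1* and *Rapgef2* (0.56 to 0.61).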

How the data were processed

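Heart RNA of 57 mice was analysed from 2 tables. Both deposited tables hold raw gene counts as the authors' counting made them, in whole numbers. Per the labels, reads were mapped to mm10 with STAR 2.7.3a and counted with featureCounts 2.0.0. The strand setting and gene annotation are not given in the sources used here. Low acute counts were mostly even, for which the sources give no reason. Groups and replicate numbers come from the labels. No 2 hearts agreed within sampling noise, and nothing ties equal replicate numbers to shared mice (correlations of −0.62 to 0.58).

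Differential expression was computed with edgeR 4.0.16 under R 4.3.3 (filterByExpr by group, TMM, quasi-likelihood F-test, 3 groups of a study fitted together, Benjamini-Hochberg adjustment over all tested genes). Acute calls needed an adjusted p under 0.05 and 1.5-fold, chronic calls and the interaction an adjusted p under 0.05. The 95% intervals are normal approximations from the SE. Levels are CPM after TMM. Log2 CPM used a prior count of 2. Correlations are descriptions without a test. The calculations were tested on simulated data.

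As alternatives served voom with sample weights in limma 3.58.1, DESeq2 1.42.0, RLE scaling, no low-count filter, fits of only the groups compared, a replicate block, acute counts halved, hearts with low or high *Myl4*, and each heart left out (for the interaction chosen after the data were seen, except acute Doxo replicate 6). Gene models come from GENCODE M21 (GRCm38) and promoters from RefSeq, with 7 members matched. Alignments used Biopython 1.88 and figures matplotlib 3.10.9.

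The members, gene lists, marker lists and the rule for named genes were chosen with earlier results of these data known. By that rule all 8 members are named, at most 6 called genes of each list by smallest adjusted p, and the 3 genes most like each member. *Myl4* was chosen for its marker list. Blood and metabolite measurements were not analysed here.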

Additional observations from a re-analysis of the deposited data

Results flagged for a closer look

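In chronic Doxo replicate 2, *Aox1* stood at 102 CPM, far above the nearest of the other 5 Doxo hearts at 54.8 CPM, a gap of 0.72 of the group's range where Dixon's 95% limit for 6 samples is 0.625. In the same heart *Slc29a1* stood at 43.6 CPM, below the nearest at 52.9 CPM, a gap of 0.752 of the range. These were the 2 outlying values among 24 pairs of member and chronic group, both in 1 heart, and chance alone marks about 1 in 20 groups.

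The Doxo effect differed between the studies by the interaction test for 3 members. The difference, acute minus chronic on the log2 scale, was 1.91 for *Aox1*, −0.77 for *Nt5e* and −0.71 for *Slc29a1*.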

How the results depend on the processing

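With 1 heart left out, 208 of 209 counts of called members stayed within 1.5 times. The count ran from 0 to 1 in acute Doxo-NMN vs. Ctrl, where it was 0 without Doxo-NMN replicate 10, and from 2 to 3 for the difference between the studies. Of 54 counts under other settings 49 did so. In acute Doxo-NMN vs. Ctrl it was 0 in limma voom and in hearts with low or high *Myl4* and 3 on adjusted p alone, and in acute Doxo-NMN vs. Doxo it was 1 in hearts with high *Myl4*. The cause was not tested, beyond the smaller number of hearts in the *Myl4* classes.

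Direction turned only in values that had not passed the test. Limma voom gave 0.0089 for *Nnmt* in acute Doxo-NMN vs. Doxo. In chronic Doxo vs. Ctrl it gave 0.032 for *Nnmt*, −0.046 for *Aox1* and −0.0080 for *Enpp1*, in Doxo-NMN vs. Doxo −0.024 for *Nnmt*, −0.0046 for *Enpp1* and −0.039 for *Slc12a8*, and in Doxo-NMN vs. Ctrl −0.013 for *Enpp1*. Among hearts with low *Myl4*, acute Doxo vs. Ctrl gave 0.36 for *Aox3* and −0.030 for *Pnp*. Doxo-NMN vs. Doxo gave 0.60 for *Aox3* and 0.013 for *Enpp1* there, and Doxo-NMN vs. Ctrl 0.95 for *Aox3* and 0.41 for *Slc12a8*. Among hearts with high *Myl4*, Doxo vs. Ctrl gave 0.083 for *Aox3*, 0.025 for *Nt5e* and −0.11 for *Slc12a8*. DESeq2 gave 0.0077 for *Slc12a8* in the difference between the studies.

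With 1 heart left out, values that changed sign ran from −0.38 to 0.14 (*Aox3*), −0.085 to 0.014 (*Enpp1*) and −0.014 to 0.086 (*Pnp*) in acute Doxo-NMN vs. Doxo, and from −0.00052 to 0.18 (*Nnmt*) in acute Doxo-NMN vs. Ctrl. In chronic Doxo vs. Ctrl they ran from −0.095 to 0.30 (*Aox1*), −0.056 to 0.10 (*Enpp1*), −0.21 to 0.054 (*Nnmt*) and −0.13 to 0.17 (*Pnp*). In chronic Doxo-NMN vs. Doxo they ran from −0.42 to 0.14 (*Aox3*), −0.062 to 0.23 (*Pnp*) and −0.0080 to 0.31 (*Slc12a8*), in Doxo-NMN vs. Ctrl from −0.072 to 0.23 (*Nnmt*) and −0.019 to 0.066 (*Slc29a1*), and in the difference between the studies from −0.085 to 0.23 (*Pnp*) and −0.16 to 0.19 (*Slc12a8*).

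Replicate numbers do not pair the mice. With the replicate number as a block, 2, 2 and 1 members were called in acute hearts and 0 in each chronic comparison, as without it, and *Aox3* turned to 0.027 in acute Doxo-NMN vs. Doxo. At the depths given, *Aox3* and *Slc12a8* rest on few counts per heart. Another pseudocount was planned for members that failed the low-count filter and was not run, since all 8 passed.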
